A study of Mus musculus with 2 samples.

Results

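Genes for channels that open on stretch, pressure, temperature or chemical irritation were examined in the bladder of newborn mice: Piezo1, Piezo2, Trpv1, Trpv2, Trpv4, Trpm4, Trpm7, Trpm8, Trpa1 and Trpc1. These 10 genes, of 21938 protein-coding genes in the annotation GENCODE M21, were listed by name under a rule that uses no measured value, with earlier results of these data known. DNase-seq, which sequences the fragment ends that DNase I cuts free where chromatin is open, had been applied to urinary bladder from 4-day-old females of strain B6CASTF1/J, a hybrid of C57BL/6J and CAST/EiJ mice. The only group held 2 biological replicates with no treatment or transgene given. The labels number the females separately but list the same donor for both, so the spread between the replicates may be partly technical. No comparison between conditions existed, and no test was run.

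Piezo channels are pores that open when the membrane is pulled taut, and TRP channels are a large family of cation channels, many of which respond to heat, cold, osmotic swelling or irritants. As the bladder fills, its lining epithelium (the urothelium), the muscle coat and the sensory nerve endings are all stretched, and PIEZO2 and TRPV4 in particular are known for roles in sensing filling. The cell bodies of the sensory neurons lie in ganglia outside the organ, so their nuclei are not part of bladder tissue.

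Each library was described by peaks (stretches of open chromatin, each with a height in the authors' deposited signal) and by footprints (short protected stretches inside open chromatin). A gene's promoter was called open where a peak came within 500 bp of an annotated start. A distal region was one whose centre lay over 1000 bp from any start, assigned to the protein-coding gene with the nearest annotated start, of any transcript, coding or not, within 100 kb. The looser peak lists held 96518 peaks in replicate 1 and 122870 in replicate 2, with 217816 and 189794 footprints. Heights came in whole steps of 0.00466 in replicate 1 and 0.00417 in replicate 2 (tolerance 0.02 steps), so each is given with a 95% exact Poisson interval over its number of steps, which covers counting error only. Where a peak was seen in both replicates, heights were generally greater in replicate 1: the median log2 ratio of replicate 1 over replicate 2 was 0.28 over 53490 shared regions (SD 0.40). Promoters of marker genes were open in both replicates for 8 of 8 smooth muscle genes and 9 of 13 urothelial genes. The counts were 6 of 7 for fibroblast genes, 5 of 6 for endothelial genes and 3 of 5 for Schwann cell genes. They were 4 of 13 for sensory neuron genes and 1 of 5 for leukocyte genes. The same share over all 21938 protein-coding genes was 62.3%, near the 69.2% of urothelial and the 60% of Schwann cell markers. The tallest urothelial marker promoters were those of Klf5 (heights 3.37 and 1.99), Cdh1 (1.41 and 1.18), Elf3 (1.09 and 0.855) and Gata3 (0.996 and 0.534). Among urothelial markers, Upk1a, a uroplakin of the surface plaque, had no promoter peak in either replicate. The uroplakins Upk1b (heights 0.955 and 0.534) and Upk3a (0.922 and 0.525) were open in both replicates. Upk2 had a peak in replicate 1 alone (0.806). In whole tissue, fewer cells with an open site and less opening per cell cannot be told apart.

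Of the 10 channel genes, 8 had an open promoter in both replicates (80%), and Trpv1 and Trpv4 had none in either. Over all protein-coding genes the share was 62.3%. The counts were the same in each replicate alone, where 65.4% (replicate 1) and 64.7% (replicate 2) of all genes were open. Over the 8 open genes the median height was 2.57 in replicate 1 and 2.19 in replicate 2, and over all open genes it was 2.44 and 1.8. The open genes covered nearly the whole range of heights, with Trpm8 at the top, Trpm4, Piezo1, Trpm7 and Trpv2 near the middle, Piezo2 and Trpc1 in the lower part and Trpa1 close to the bottom. The Trpm8 peak, which enters these medians, also covers the start of the neighbour Hjurp and cannot be assigned to either gene. Of 14 starts of principal transcripts (the main protein-coding form in the APPRIS classification), 6 were open in both replicates, against 55% of all principal starts. Over transcripts of every kind, 22 of 66 annotated starts were open in both. Starts close together share a peak, as at Trpm4, so the 22 are not separate sites. No share over all annotated starts is given here.

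**Figure D1:**
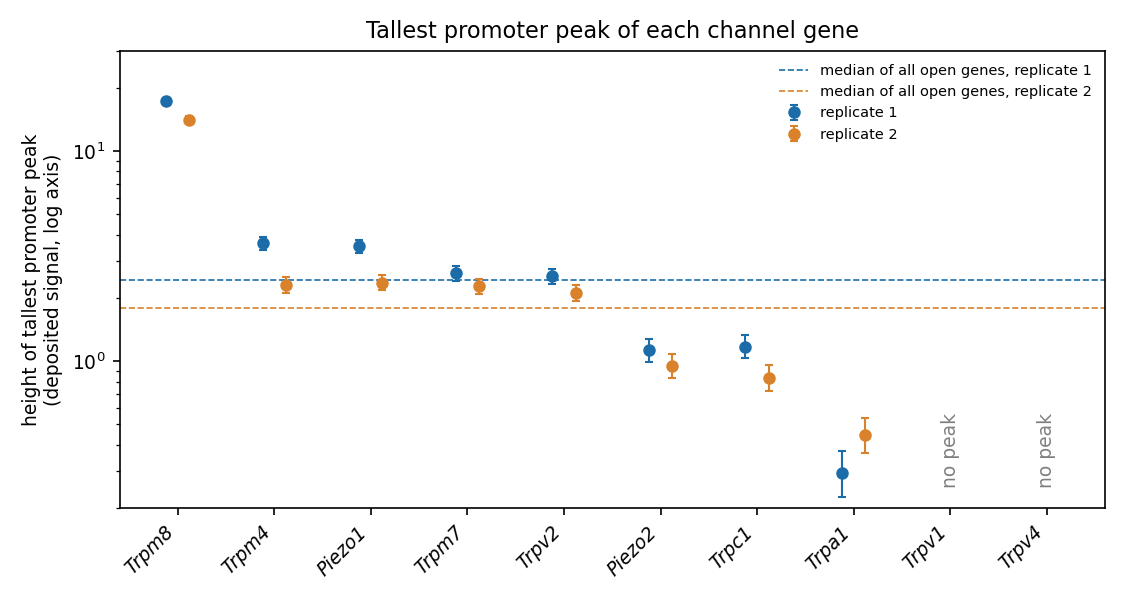
Height of the tallest promoter peak of each channel gene on a log axis, with replicate 1 and replicate 2 side by side. Bars are 95% exact Poisson intervals over counting steps, and dashed lines mark the median of all open genes in each replicate. Trpm8, at 17.3 and 14.1, stands far above the other genes, and Trpv1 and Trpv4 have no peak. The Trpm8 peak also covers the start of the neighbour Hjurp.

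Piezo1 encodes the broadly expressed stretch-gated channel of endothelium, red cells and epithelia, the urothelium included. The gene lies on the minus strand at chr8:122481698-122551329 in assembly mm10. Its tallest promoter peak had a height of 3.52 (interval 3.27 to 3.78) in replicate 1 and 2.36 (2.17 to 2.57) in replicate 2, a mean of 2.94 ± 0.814 (SD, n = 2). It was taller than 68.4% of open promoters in replicate 1 and 63.3% in replicate 2. The log2 ratio of replicate 1 over replicate 2 was 0.57, within 1 SD of the median of all shared regions. The opening was divided: with positions counted from the principal start and negative ones upstream, the tallest peak was centred at -362 bp, a separate peak with heights of 1.79 and 1.84 at -42 bp, and a peak of 1.07, called in replicate 1 alone, at 468 bp inside the gene. At least 2 separate promoter peaks in both replicates were found at 26.7% of all protein-coding genes. The promoter held 5 footprints seen in both replicates, and 3 of them lay in the tallest peak. The other 7 annotated Piezo1 starts, all of transcripts without a normal coding product, had no peak. The upstream peak is printed 5′ to 3′ on the gene's strand as the part called in both replicates (chr8:122551601-122551780), to show where protection recurred. In all sequences here, from the RefSeq genome GRCm38.p6 (mm10), capitals are bases inside footprints of both replicates.
Piezo1 upstream promoter peak: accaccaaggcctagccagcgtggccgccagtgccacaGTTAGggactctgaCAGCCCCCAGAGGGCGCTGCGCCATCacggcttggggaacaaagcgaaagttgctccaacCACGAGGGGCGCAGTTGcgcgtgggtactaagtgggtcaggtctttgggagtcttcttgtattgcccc

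Piezo2 encodes the slower, touch- and stretch-sensing relative that is best known from sensory neurons and Merkel cells. It spans 377 kb on the minus strand at chr18:63010213-63387183. The promoter peak at the principal start had heights of 1.13 (0.994 to 1.28) in replicate 1 and 0.951 (0.831 to 1.08) in replicate 2, a mean of 1.04 ± 0.128. It was lower than that of Piezo1 in each replicate, with intervals that did not overlap, and exceeded only 24% (replicate 1) and 26.3% (replicate 2) of open promoters. A weaker peak in the beginning of the gene, at the starts of further protein-coding transcripts, had heights of 0.768 and 0.667. Another peak, at an internal protein-coding start near the other end of the gene, was called in replicate 2 alone at 0.663. The other internal starts carried no peak in either replicate. The principal peak held 3 footprints in both replicates.

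Trpv1 encodes the capsaicin and heat receptor of pain fibres, on the plus strand at chr11:73234292-73261242. None of its 5 starts had a peak in either replicate, and no stretch with a false discovery rate up to 0.05 was listed within 500 bp of any of them. Its principal start window was poor in CpG, with 0.173 of the CpG dinucleotides that its base composition would give. Of all principal windows with a ratio under 0.3, 5.43% were open in both replicates.

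Trpv1 had a single distal region, in its own intron, 2.22 kb past the principal start. That region had heights of 1.18 (1.04 to 1.33) and 0.992 (0.870 to 1.13) and was taller than 74.8% and 76.8% of shared distal regions. It is the only open site assigned to the gene, and is printed as the part called in both replicates (chr11:73236441-73236600, plus strand).
Trpv1 intronic region: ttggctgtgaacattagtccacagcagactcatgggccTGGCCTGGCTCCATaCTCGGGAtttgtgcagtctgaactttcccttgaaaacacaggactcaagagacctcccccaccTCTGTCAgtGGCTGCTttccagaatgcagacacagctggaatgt

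Trpv4 encodes the osmotically and warmth-activated channel of urothelium and other epithelia, on the minus strand at chr5:114622152-114658421. It had no promoter peak and no listed false discovery rate at any start in either replicate. Its principal window differed from that of Trpv1: it had 65.7% GC and a CpG ratio of 0.73, and of all principal windows with a ratio of at least 0.6, 93.4% were open in both replicates. Beside a promoter without a peak, Trpv4 had 7 distal regions shared by the replicates, the most of the 10 genes. At least 7 were found for 3.04% of all protein-coding genes, and the combination of no promoter peak in either replicate with at least 5 shared distal regions for 0.638%.

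The tallest region of Trpv4 lay between genes, 9.27 kb upstream of the principal start. Its heights were 7.75 (7.38 to 8.13) in replicate 1 and 4.25 (4 to 4.52) in replicate 2, a mean of 6 ± 2.47. It exceeded 99.9% and 99.7% of all shared distal regions, and was taller than every promoter peak of the 10 genes except that of Trpm8. The log2 ratio of 0.87 was the largest between the replicates among the shared regions of these genes. The next tallest was in a Trpv4 intron 18.9 kb into the gene, with heights of 3.27 (3.03 to 3.52) and 2.27 (2.09 to 2.47), above 97.9% and 97.3% of shared distal regions. The other 5 had heights of 0.782 to 2.14 in replicate 1 and 0.655 to 1.63 in replicate 2. Of these, 2 were in Trpv4 introns, 1 lay past the end of the gene and 2 were in introns of the neighbour Fam222a, whose own start was 39.8 and 40.7 kb away. Assignment to the nearest start does not show which gene a region acts on: the start of Gltp, a glycolipid transfer protein gene, was 23.2 kb from the tallest region.

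**Figure D2:**
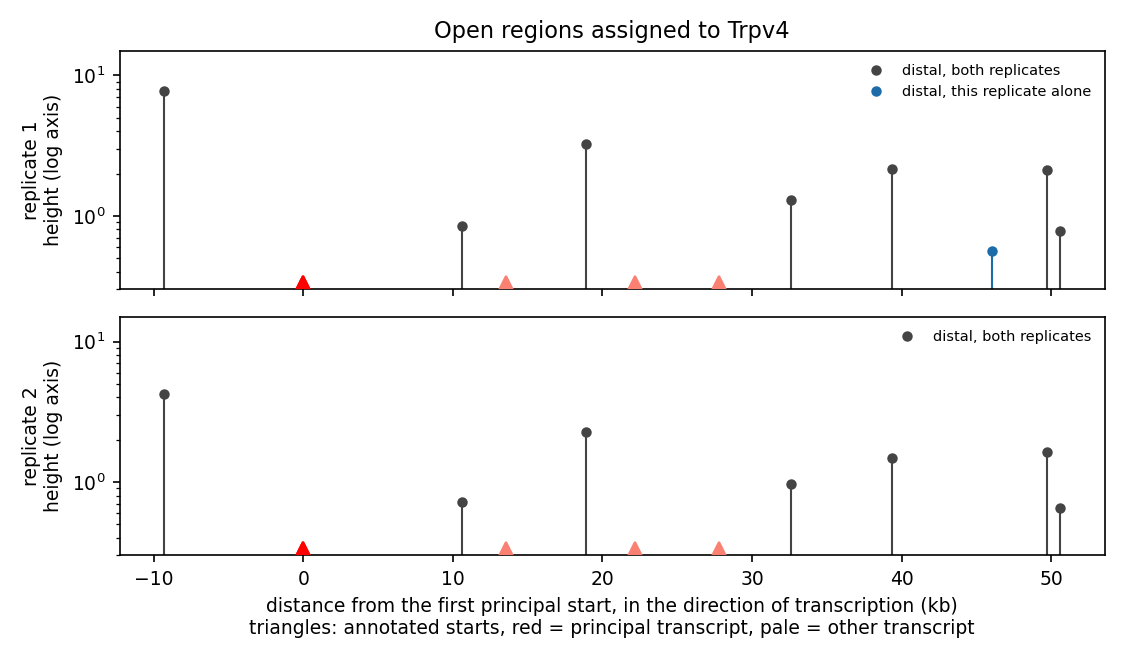
Height of each distal region assigned to Trpv4 (log axis) against distance from the first principal start in the direction of transcription, in kb, for replicate 1 above and replicate 2 below. Triangles are annotated starts. The starts carry no peak, and the same 7 regions appear in both replicates, led by that 9.27 kb upstream.

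Both of these tall regions are printed, as the parts called in both replicates (chr5:114667601-114667780 and chr5:114639421-114639620, minus strand), because they carry the openness of a locus whose promoter had no peak. The upstream region held 3 footprints in both replicates and was rich in CpG for a distal site, with an observed over expected ratio of 0.836. Its capitals include the reverse complement of GGACAGCGC, the right part of the site of the neuronal repressor REST. That string was present in 1 of the 21 shared distal regions and in 0.333% of all shared distal regions (200 bp windows, both strands). The left part, TTCAGCACC, was present in 0 of the 21 and in 0.666% of all. Both were among 18 motifs searched. The intronic region held 3 footprints in both replicates. Its longest run of capitals includes a match to the CTCF consensus, and CAGCTG (an E-box) and GGAATG (the TEAD string) flank it. These matches are descriptions of letters and not of bound factors.
Trpv4 upstream region: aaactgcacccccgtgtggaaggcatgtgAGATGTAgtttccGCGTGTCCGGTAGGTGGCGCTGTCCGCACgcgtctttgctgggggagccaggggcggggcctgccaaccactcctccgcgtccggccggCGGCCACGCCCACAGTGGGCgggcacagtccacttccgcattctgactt
Trpv4 intronic region: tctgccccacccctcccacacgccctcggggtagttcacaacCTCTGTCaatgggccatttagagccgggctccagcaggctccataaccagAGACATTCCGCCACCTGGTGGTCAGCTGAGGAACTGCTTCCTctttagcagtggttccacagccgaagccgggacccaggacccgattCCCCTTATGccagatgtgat

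Trpv2 encodes a channel of heat and mechanical stimuli found in many non-neuronal cells, on the plus strand at chr11:62574486-62600515. Its tallest promoter peak had heights of 2.53 (2.32 to 2.75) and 2.11 (1.93 to 2.30), a mean of 2.32 ± 0.299, close to the median of all open promoters. The peak did not sit at a start of a principal transcript. It was centred near the start of the noncoding transcript Trpv2-203. Counted from its centre, 1 principal start lay at -0.923 kb, upstream, and had no peak, and the other lay at 0.664 kb, downstream. One of 3 RefSeq starts of the gene, at position 62575627, had the tall peak in its window, and the other 2 had no peak. The downstream principal start had a separate peak of 0.75 in replicate 1 alone. When only starts of protein-coding transcripts were counted, Trpv2 was therefore not open in both replicates. The single distal region of Trpv2 was taller than its promoter peak, at 3.93 (3.67 to 4.20) and 3.22 (3 to 3.46), above 98.9% and 99.3% of shared distal regions. It lay in an intron of Lrrc75a, 32.6 kb from the nearest Trpv2 start, that of a noncoding transcript, and 34.2 kb from the nearest start of Lrrc75a. By starts of protein-coding transcripts alone it was assigned to Lrrc75a. Both the promoter peak and the distal region held a match to the CTCF consensus wholly in capitals, and they are printed for that reason (chr11:62575381-62575560 and chr11:62613761-62613940, plus strand).
Trpv2 promoter peak: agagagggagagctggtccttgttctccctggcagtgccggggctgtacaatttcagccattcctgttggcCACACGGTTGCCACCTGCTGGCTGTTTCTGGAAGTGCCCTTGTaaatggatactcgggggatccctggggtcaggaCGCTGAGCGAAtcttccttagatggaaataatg
Trpv2 distal region: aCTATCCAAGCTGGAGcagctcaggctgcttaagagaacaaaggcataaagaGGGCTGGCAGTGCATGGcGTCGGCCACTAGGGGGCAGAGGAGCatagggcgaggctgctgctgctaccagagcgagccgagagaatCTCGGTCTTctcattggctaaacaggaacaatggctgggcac

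Trpm4 encodes a calcium-activated channel for monovalent cations that depolarizes smooth muscle, and it lies on the minus strand at chr7:45302632-45333780. Its promoter peak had heights of 3.64 (3.39 to 3.90) in replicate 1 and 2.31 (2.12 to 2.51) in replicate 2, a mean of 2.97 ± 0.938. This was level with Piezo1, with overlapping intervals in both replicates, and the log2 ratio of 0.65 was the largest among the promoters. Further peaks in both replicates lay 335 to 448 bp downstream of a start, at 0.889 and 0.617, and near the end of the gene in a coding exon, at the starts of short transcripts, at 0.964 and 0.892. Distal regions in both replicates numbered 2, both past the end of the gene, with the same height of 0.913 in replicate 1 and heights of 0.692 and 0.717 in replicate 2.

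Trpm7 encodes a channel fused to a protein kinase that carries magnesium, calcium and zinc into most cell types, on the minus strand at chr2:126791565-126876230. Its promoter peak had heights of 2.62 (2.40 to 2.84) and 2.27 (2.08 to 2.47), a mean of 2.44 ± 0.247. The peak covered the principal start in a CpG-rich window (ratio 1.00). A low second peak inside the gene had heights of 0.531 and 0.309. Over both peaks, 7 footprints in replicate 1 and 3 in replicate 2 had 1 in common. No distal region was shared, and 1 was called in replicate 2 alone at 0.325. With an open promoter and no recurring distal region, Trpm7 was the reverse of Trpv4, as were Trpa1 and Trpc1. Over all protein-coding genes the median number of shared distal regions was 0. The part upstream of the gene (chr2:126876231-126876400, minus strand) is printed for contrast with the distal sites.
Trpm7 promoter peak: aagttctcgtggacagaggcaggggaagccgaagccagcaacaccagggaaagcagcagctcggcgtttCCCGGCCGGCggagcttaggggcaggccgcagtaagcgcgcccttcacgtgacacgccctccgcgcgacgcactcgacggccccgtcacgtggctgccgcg

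Trpm8 encodes the cold and menthol receptor of sensory neurons and lies on the plus strand at chr1:88277661-88389293. Its promoter height was the largest of the 10 genes, 17.3 (16.7 to 17.8) in replicate 1 and 14.1 (13.7 to 14.6) in replicate 2, a mean of 15.7 ± 2.21. Of 14355 genes with a promoter peak in replicate 1, 2 had a taller one, and of 14196 in replicate 2, 0 had. This peak covered the start of the noncoding transcript Trpm8-203 and the start of Hjurp, which runs in the opposite direction from 28 bp away and encodes a histone chaperone of centromeres used by dividing cells. The peak cannot be assigned to either gene. A second peak in the same windows, with heights of 2.69 and 2.81, was in a coding exon of Hjurp.

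At the starts that make the TRPM8 protein the picture was different. The principal starts lie 25.6, 29.1 and 41.3 kb downstream of the tall peak. The first and second of them had no peak in either replicate, and the last had a peak of 0.938 (0.820 to 1.07) in replicate 2 alone. The RefSeq start, at position 88306735, had no peak. CpG ratios were 0.164, 0.2 and 0.19 at the principal starts and 0.789 at Trpm8-203. With starts of protein-coding transcripts alone, neither Trpm8 nor Trpv2 was open in both replicates, and 6 of the 10 channel genes were, against 60.9% of all genes. The tall peak is shown without the transcribed bases of Hjurp (chr1:88277634-88277740, plus strand), with recurring protection in capitals.
Peak at Trpm8-203 and Hjurp: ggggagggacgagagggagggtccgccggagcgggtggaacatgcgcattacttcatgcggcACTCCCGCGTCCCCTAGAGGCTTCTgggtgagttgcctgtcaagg

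Trpm8 had 49 distal regions, far more than any other of the 10 genes, but only 5 were shared: 32 were called in replicate 1 and 22 in replicate 2. Most of those found in 1 replicate alone ran together in the gene. In replicate 1, 22 regions lay between chr1:88346521 and 88362833, 43.3 to 59.5 kb past the first principal start, with low heights of 0.102 to 0.251 (median 0.17), and 17 of them were in the stricter list. Listed false discovery rates up to 0.05 covered 44.4% of that stretch in replicate 1 and 1.13% in replicate 2. In replicate 2, 17 regions lay between chr1:88286328 and 88304659, upstream of and across the first principal start, with heights of 0.3 to 1.34 (median 0.734), and 9 were in the stricter list. There, listed rates covered 1.3% in replicate 1 and 27.4% in replicate 2. The replicates thus differed in separate parts of the same gene.

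Stretches of at least 3 such regions no more than 6 kb apart, a rule chosen after the values were seen, were found also in Piezo2 and once more in Trpm8. Piezo2 had 6 very low regions in replicate 1, from 0.0605 to 0.191, between 107 and 112 kb past its principal start, where rates were listed for 32.1% of bases in replicate 1 and 0% in replicate 2. The additional Trpm8 stretch held 5 regions of replicate 1 at 0.363 to 0.782. Stretches of at least 3 regions found in 1 replicate alone were present for 6.99% of all genes in replicate 1 and 10.6% in replicate 2. Stretches of at least 10 regions found in 1 replicate alone were present for 2.15% of all genes in replicate 1 and 4.51% in replicate 2, and in each replicate for 0.46% (101 genes, Trpm8 among them). What sets the stretches was not tested.

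**Figure D3:**
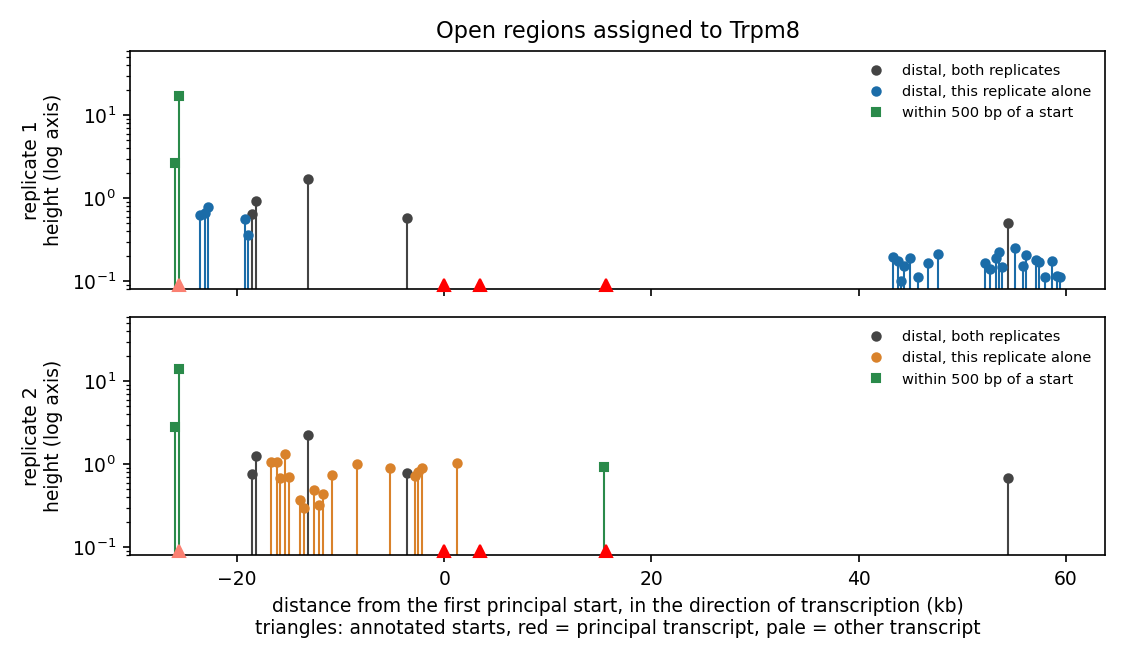
Height of each open region assigned to Trpm8 (log axis) against distance from the first principal start in the direction of transcription, in kb, for replicate 1 above and replicate 2 below. Squares are promoter peaks, circles are distal regions and triangles are annotated starts. The tall peak lies 25.6 kb upstream in both replicates, and the regions of 1 replicate alone form separate runs, 17 upstream of and across the first principal start in replicate 2 and 22 farther downstream in replicate 1.

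The 5 shared distal regions of Trpm8 were all lower in replicate 1. Heights in replicate 1 were 0.647, 0.936, 1.71, 0.573 and 0.498, and heights in replicate 2, in the same order along the gene, were 0.771, 1.27, 2.27, 0.788 and 0.684. The log2 ratios of replicate 1 over replicate 2 were between -0.46 and -0.25. The first 3 of these regions lay 7.06, 7.5 and 12.5 kb from the start of Hjurp, about as far as from Trpm8-203, so their assignment to Trpm8 rests on 28 bp between the starts. By starts of protein-coding transcripts alone these 3 were assigned to Hjurp, and Trpm8 had 34 distal regions, of which 2 were shared. Among the other channel genes, 15 of 16 shared distal regions were higher in replicate 1 and 1, in Piezo2, was level. Of all shared distal regions, 31.6% were higher in replicate 2, and 15.3% had a ratio of -0.25 or less. The tallest of the 5 (chr1:88290074-88290161, plus strand) is printed because 12 of 12 bases of its CTCF match were in footprints of both replicates.
Trpm8 distal region: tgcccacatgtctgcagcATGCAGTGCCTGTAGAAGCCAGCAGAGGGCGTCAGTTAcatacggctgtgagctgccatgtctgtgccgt

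**Figure D4:**
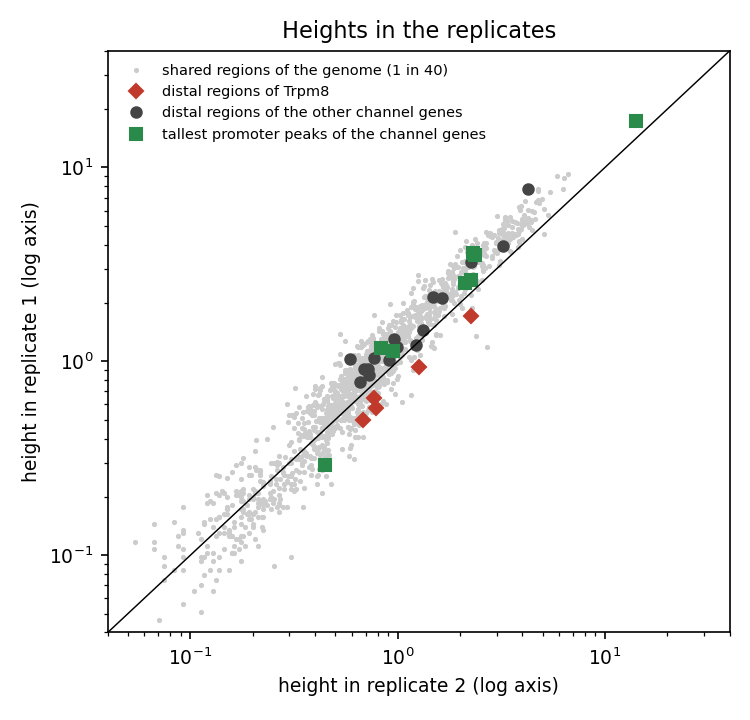
Height in replicate 1 against height in replicate 2, both on log axes, for the tallest promoter peaks and the shared distal regions of the channel genes, over 1 in 40 of the shared regions of the genome, with the line of equal height. All 5 distal regions of Trpm8 and the promoter of Trpa1 lie below the line, and the other promoters above it.

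Trpa1 encodes the irritant receptor of pain fibres and lies on the minus strand at chr1:14872648-14918862. Its promoter peak was among the lowest of all, with heights of 0.293 (0.225 to 0.375) in replicate 1 and 0.446 (0.366 to 0.539) in replicate 2, a mean of 0.37 ± 0.108. It exceeded 1.14% of open promoters in replicate 1 and 5.76% in replicate 2, and only the peak of replicate 2 was in the stricter list. Trpa1 was the only channel gene with a lower promoter in replicate 1, by a log2 ratio of -0.60, but the Poisson intervals overlapped. No footprint recurred in it, and its only distal region was called in replicate 1 alone, at 0.21.

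Trpc1 encodes a subunit of widely expressed receptor- and store-operated calcium entry channels, on the minus strand at chr9:95705082-95750375. Its promoter peak had heights of 1.17 (1.03 to 1.33) and 0.834 (0.722 to 0.958), a mean of 1 ± 0.24, taller than 25.1% and 22.2% of open promoters. It did not differ from Piezo2 beyond the intervals. No distal region was assigned to Trpc1 in either replicate, and by starts of protein-coding transcripts alone 1 shared region was. Its promoter is printed (chr9:95750359-95750460, minus strand) as a CpG-rich start with recurring protection at GC boxes: GGGCGG or its reverse complement occurred 3 times, once wholly in capitals. GC boxes were present in 3 of 8 channel promoters and in 56% of all promoter regions (200 bp windows, both strands).
Trpc1 promoter peak: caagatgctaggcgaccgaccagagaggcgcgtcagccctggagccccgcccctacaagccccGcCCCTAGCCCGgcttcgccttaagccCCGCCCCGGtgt

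Footprints recurring in both replicates were found in 7 of the 8 open promoters, all but Trpa1, against 89.6% of all genes with an open promoter. They numbered 20 in all. Counts in both replicates were 5 at Piezo1, 4 at Trpm8, 3 at Piezo2 and at Trpm4, 2 at Trpv2 and at Trpc1 and 1 at Trpm7, around a median of 3 over all open genes. These are footprints of replicate 1 that overlapped one of replicate 2. Counted from replicate 2, the Trpm8 peaks near Trpm8-203 held 3 and 2, and the main Trpc1 peak held 3. The footprint lists give no strength, so a count does not say how strongly a site was protected.

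Distal regions assigned to the 10 genes numbered 79, of which 60 were called in replicate 1, 40 in replicate 2 and 21 in both. At least 1 shared distal region was found for 7 of the 10 genes, against 43.7% of all protein-coding genes, and at least 5 for Trpv4 and Trpm8, against 5.57%. The mean number shared was 2.1 per channel gene and 1.18 over all genes. Sharing was unequal among the genes: 7 of 8 regions were shared at Trpv4 and 5 of 49 at Trpm8. Of the regions called in replicate 1 over all genes, 50.5% were shared, and of those in replicate 2, 38.1%. By starts of protein-coding transcripts alone, 16 shared regions were assigned to the 10 genes, with 7 still at Trpv4. By position, 17 of the 21 were intronic and 4 lay between genes, and none was in an exon. The intronic ones include those in the neighbours Fam222a and Lrrc75a. Shares by position over all shared distal regions are not given, so this is not read as a trait of the 10 genes.

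**Figure D5:**
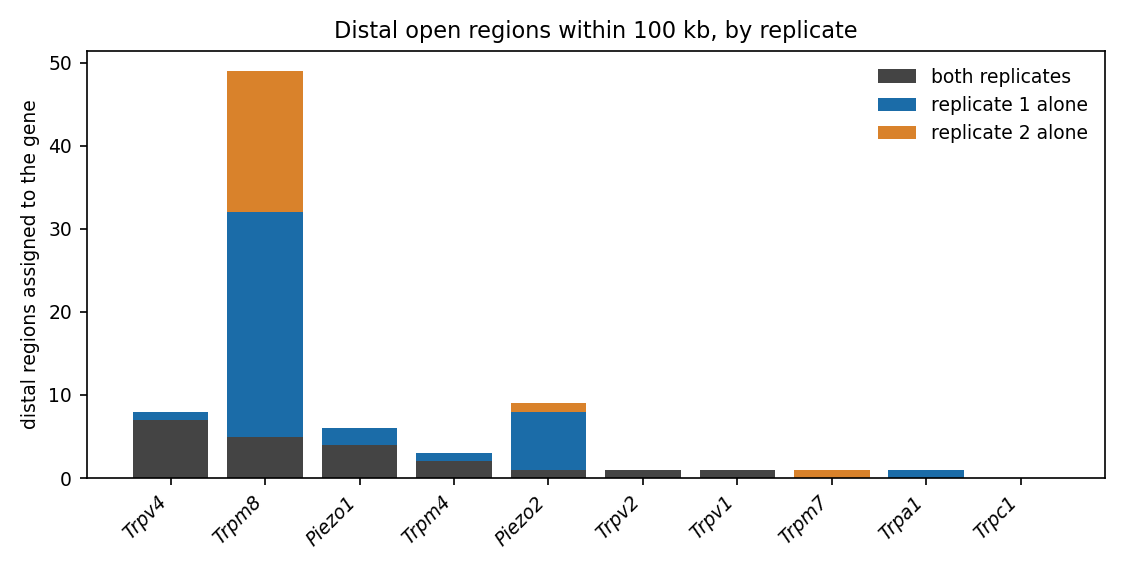
Number of distal regions assigned to each channel gene, divided into those in both replicates, in replicate 1 alone and in replicate 2 alone. Trpv4 has 7 of 8 in both, Trpm8 has 5 of 49 in both, and Trpc1 has none.

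Piezo1 had 4 shared distal regions, all in its introns, where the annotated locus Gm20388 also runs. The tallest had heights of 1.46 (1.30 to 1.63) and 1.32 (1.18 to 1.48), 50.3 kb past the principal start. By starts of protein-coding transcripts alone, this region and the one nearest to it were assigned to the neighbour Ctu2, and 2 were left at Piezo1. The other 3 had heights of 1.02 to 1.04 in replicate 1 and 0.588 to 0.913 in replicate 2. Piezo2 had 1, deep in an intron 87.8 kb past its principal start, with heights of 1.22 (1.08 to 1.38) and 1.23 (1.09 to 1.37), above its own promoter peak in each replicate, though the intervals overlapped in replicate 1. The tallest Piezo1 region is printed in the part called in both replicates (chr8:122500961-122501160, minus strand), since its main run of capitals again holds a CTCF match.
Piezo1 intronic region: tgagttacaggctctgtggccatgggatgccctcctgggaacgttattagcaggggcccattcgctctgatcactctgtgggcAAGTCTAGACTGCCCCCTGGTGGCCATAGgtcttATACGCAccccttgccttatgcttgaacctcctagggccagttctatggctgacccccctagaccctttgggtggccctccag

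CTCF, an insulator protein that binds a long consensus, was searched by name with a consensus of 12 bases on both strands in 200 bp windows. A match was present in 5 of the 21 shared distal regions, 1 each at Piezo1, Trpv2 and Trpv4 and 2 at Trpm8, and in 11.7% of all shared distal regions. Among promoters it was present at Trpv2 alone of 8, and in 1.83% of all. In 5 of these 6 sequences the match was wholly inside footprints of both replicates, and in the remaining Trpm8 region 6 of 12 bases were. The E-box CAGCTG was present in 7 of 21 (18.8% of all), GGAATG in 5 of 21 (12.1% of all) and the AP-1 string TGANTCA in 0 of 21 (7.74% of all).

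The remaining channels and their partners gave a background within the same libraries. Of 20 other TRP channel genes, 11 were open at the promoter in both replicates (55%), with the tallest at Mcoln1, a lysosomal channel (4.62 ± 1.09, SD, n = 2), Pkd2l2 (2.68 ± 0.29), Pkd2, the polycystin of primary cilia (1.51 ± 0.267) and Trpm5, a taste transduction channel (1.49 ± 0.0793). Mcoln3, Pkd2l1, Trpc2 and Trpv5 had none in either. Over the genes with a peak in the given replicate, median heights were 0.629 in replicate 1 and 0.596 in replicate 2. These were below the medians of the 8 channel genes, but they include genes open in 1 replicate alone. Of such genes there were 3 in replicate 1 and 1 in replicate 2, whereas the 8 channel genes were open in both. Of 16 other mechanosensitive channel genes, 11 were open (68.8%), led by Lrrc8a, the swelling-activated anion channel (8.57 ± 1.07), Tmem63b (2.91 ± 0.404, in a window shared with Mrpl14), the sodium channel subunit Scnn1g (2.44 ± 0.52) and Tmem63a (1.37 ± 0.424). Scnn1a, Tmc1, Tmc2 and Tmem63c had no peak.

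Of 16 genes for channel partners and regulators, 13 were open in both replicates (81.2%). The tallest were Stom, a stomatin (7.2 ± 1.24), the polycystin Pkd1 (5.01 ± 1.48), the store-operated pore gene Orai1 (4.73 ± 1.31) and Tmem120a (4.16 ± 1.3), and Abcc8, Pirt and Stoml3 had none. Of 9 genes downstream of stretch, 8 were open (88.9%), among them the growth coactivators Yap1 (3 ± 0.546) and Wwtr1 (2.87 ± 0.0996), and P2rx3, the ATP receptor of sensory endings (2.2 ± 0.611), whose window is shared with the neighbouring gene Ssrp1. Nos3 had none. The 13 sensory neuron markers, which also hold P2rx3, were open in 4 (30.8%), with Isl1 at 1.06 ± 0.276, Pou4f1 at 0.584 ± 0.0175 and Tac1 at 0.342 ± 0.0361, and Avil, Prdm12 and Scn10a had no peak. The part of nerve tissue in the values of Trpv1, Trpm8 and Trpa1 was not tested.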

How the data were processed

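DNase-seq peaks, footprints and false discovery rates were deposited per sample for both replicates, on assembly mm10. Per the deposited file descriptions, they were derived from each sample's own filtered alignments, with the aligner, the callers and all thresholds not given in the sources used here. Peak heights are the authors' deposited signal, of unstated scale. In the rate lists the deposited p-value column holds false discovery rates up to 0.05, and in the footprint lists it is 0.01 for every footprint. Total read depth is unknown, and its possible use in scaling heights could not be checked.

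The genes, lists, motifs and thresholds were chosen with earlier results of these data known. All 10 channel genes were named, and of each other list up to 4 tallest genes open in both replicates and up to 4 without a peak, in alphabetical order, except that 1 such gene is not reported here. Peaks were shared if they overlapped by at least 1 bp, and overlapping peaks were merged into regions, whose height in a replicate was that of the tallest peak. Footprints counted if they lay wholly inside a peak, and recurred if they overlapped by at least 1 bp. Recurring footprints were counted from replicate 1, and counts from replicate 2 can differ. Analyses used Python 3.11.15, numpy 2.4.6, pandas 2.3.3, scipy 1.17.1 and matplotlib 3.10.9 and were tested on simulated data. RefSeq starts were found for 7 of the 10 genes. Alternatives were the stricter lists, other windows and distances, summed heights, and each replicate alone. Heights at starts of protein-coding transcripts only, and assignment of distal regions by such starts, were added after the values were seen.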

Additional observations from a re-analysis of the deposited data

How the results depend on the processing

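The open promoters of the channel genes stayed within 1.5 times the 8 reported under every alternative run, down to 6 with starts of protein-coding transcripts only. In the stricter lists the marker genes open in both replicates numbered 23 instead of 36, and the shared distal regions 11 instead of 21, with 1 instead of 5 at Trpm8 and 0 instead of 2 at Trpm4. Summing all peaks in a promoter window gave a median height of 2.78 instead of 2.38, and all 6 of the 45 recomputed heights of single genes that moved did so under this sum. The sum gave 5.29 instead of 2.94 at Piezo1, 2.26 instead of 1.04 at Piezo2 and 4.65 instead of 2.97 at Trpm4, each over 1.5 times as high. With each replicate alone, distal regions numbered 40 to 60 instead of 21 and footprints 40 to 44 instead of 20, since nothing then had to recur. Assignment by the nearest start of a protein-coding transcript, added after the values were seen, gave 16 shared distal regions, with 2 instead of 4 at Piezo1, 0 instead of 1 at Trpv2 and 2 instead of 5 at Trpm8. At Trpv1 the only distal region was lost when distal meant over 2000 bp from any start. No paired analysis was possible because the replicates form a single group. Total depth is unknown, so a promoter without a peak was not detected as open at these depths and is not shown to be closed.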
